A study of Mus musculus with 8 samples.

Results

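The proteasome subunit genes were compared between lymphoma and normal B cells of the spleen (B splenocytes). Members were all genes whose platform symbol starts with Psma, Psmb, Psmc, Psmd or Psme, leaving out the immunoproteasome genes Psmb8, Psmb9 and Psmb10. This gave 41 of 19087 genes, carried by 68 of 33709 listed features, and each gene was represented by its brightest feature. They comprise 8 alpha ring and 8 beta ring genes of the core, 9 genes of the base, 8 of the lid, 3 activators and 3 assembly factors. The remaining members, Psmc3ip, a meiotic recombination factor, and Psme3ip1, a protein that binds the activator encoded by Psme3, share the prefix and are not subunits. Psme2 and Psme2b are not analysed here.

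RNA came from 8 mice, all of strain C57BL/6, with 1 array labelled with Cy3 for each mouse. The lymphoma group holds 4 c-myc/Cdk4(R24C) lymphoma mice, in which c-myc is combined with a mutant Cdk4, a cell cycle kinase, that resists its INK4 inhibitors. The other group holds 4 wild type (wt) mice. No treatment, age or promoter driving c-myc is given in the sources used here, so the model is described no further. Each of 2 slides carried 2 arrays of each group, with mice 1 and 2 on slide 1 and mice 3 and 4 on slide 2.

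The proteasome is the protease that degrades proteins tagged with ubiquitin. Its barrel-shaped core stacks outer alpha rings, which form the gate, around inner beta rings, where Psmb5, Psmb6 and Psmb7 carry the active sites. A regulatory particle caps the core, with a base of ATPases that unfold substrates and a lid that removes ubiquitin. B cells also make inducible beta subunits, and proteasome inhibitors are used to treat human plasma cell and mantle cell malignancies. Transcription of subunit genes is known to be raised together by Nfe2l1, which binds antioxidant response elements with a small Maf partner, and NF-Y binds CCAAT boxes in many such promoters.

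Levels below are log2 intensities, in which a difference of 1 is a 2-fold change, after the arrays were aligned at their 75th percentiles. They are not compared between genes, because probes differ in brightness. The B cell identity of the samples was checked with 7 marker genes, whose mean level per array was 12.77 to 13.43 in wild type and 12.66 to 13.25 in lymphoma, with 0 of 7 called different. Of these, Cd79b, Blnk and Ms4a1 were near the ceiling of intensity on 7, 7 and 5 of 8 arrays, where a difference could be hidden. Cd22, well below it, was lower on every lymphoma array, by a difference of -1.03 (adjusted p 0.0854 by limma). Markers of other cells were also present. The mean of 6 macrophage markers lay at 10.83 to 11.86 in wild type and 9.58 to 10.27 in lymphoma, with 4 of 6 lower by limma. Of all genes, 1.27% were called lower. The mean of 6 plasma cell markers lay at 10.55 to 11.34 against 8.98 to 10.17, with 3 of 6 lower, and that of 6 granulocyte markers at 9.09 to 9.75 against 7.67 to 8.65, with 1 of 6 lower. Of T, NK, erythroid and dendritic cell markers, none of 16 was called. The difference was below 0 in all of them but Cd4, beside 8270 of all 19087 genes. Among these 16 and the B cell markers, 4 had an unadjusted p under 0.05 by limma, beside 15.9% of all genes. They were Cd22, Thy1 (-0.82), Hba-a1 (-1.44) and Itgax (-1.01), all lower in lymphoma. The Cd4 feature was at background on all 8 arrays, as were the features of 2 of 4 dendritic cell markers. Those of Cd3e, Ncr1 and Xcr1 were at background on 7 arrays, where a difference could be hidden. The part of these other cells in the results below was not tested. Wild type 1 correlated more closely with the lymphoma arrays (mean r over features 0.963) than with the other controls (0.941), so results are also given without it. In bulk RNA of this kind, fewer cells of a type and less RNA per cell cannot be told apart.

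Promoters of 34 of the 41 members were found among RefSeq sequences of GRCm38.p6, each from 250 bases before to 50 bases after the start. The antioxidant response element, searched as TGACNNNGC on both strands, occurred in 6 of 34 members (17.6%), namely Psmb5, Psmb6, Psmc6, Psmd12, Psme4 and Psmd9, and in 14% of all 27025 genes with such a window. CCAAT occurred in 15 of 34 (44.1%) against 41.1% of all genes. The E-box CACGTG, the site that MYC binds, occurred in 4 of 34 (11.8%) against 8.09%, in Psma4, Psme3, Psmd9 and Psme3ip1. Each share lay close to that of all genes. A match describes letters only, and the windows cannot show binding.

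The 250 bases before the start are shown for 5 genes, with matches in capitals on either strand. Psma7 (chr2:180042465-180042714, minus strand), Psmb5 (chr14:54617996-54618245, minus strand) and Psmd11 (chr11:80428365-80428614, plus strand) are the members called in part of the fits below whose promoters were given. Psmb3 (chr11:97703184-97703433, plus strand) is shown as a core gene with CCAAT boxes and Psma4 (chr9:54950609-54950858, plus strand) as the 1 subunit of 26 with an E-box. Neither was called in any fit. Coordinates are those of GRCm38.p6.
Psma7: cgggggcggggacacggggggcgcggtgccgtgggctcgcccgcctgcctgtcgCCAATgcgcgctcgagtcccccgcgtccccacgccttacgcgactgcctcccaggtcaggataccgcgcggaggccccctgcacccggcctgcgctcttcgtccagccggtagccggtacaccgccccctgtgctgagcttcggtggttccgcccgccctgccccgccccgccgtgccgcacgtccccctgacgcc
Psmb5: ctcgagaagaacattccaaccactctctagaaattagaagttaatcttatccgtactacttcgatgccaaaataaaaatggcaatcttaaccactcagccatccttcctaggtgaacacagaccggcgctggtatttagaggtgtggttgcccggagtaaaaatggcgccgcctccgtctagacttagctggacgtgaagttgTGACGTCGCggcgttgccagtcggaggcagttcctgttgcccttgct
Psmd11: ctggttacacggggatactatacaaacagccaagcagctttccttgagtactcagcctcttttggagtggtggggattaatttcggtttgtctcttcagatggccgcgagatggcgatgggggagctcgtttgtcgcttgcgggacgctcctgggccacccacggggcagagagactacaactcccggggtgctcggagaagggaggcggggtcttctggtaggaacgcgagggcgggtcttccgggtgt
Psmb3: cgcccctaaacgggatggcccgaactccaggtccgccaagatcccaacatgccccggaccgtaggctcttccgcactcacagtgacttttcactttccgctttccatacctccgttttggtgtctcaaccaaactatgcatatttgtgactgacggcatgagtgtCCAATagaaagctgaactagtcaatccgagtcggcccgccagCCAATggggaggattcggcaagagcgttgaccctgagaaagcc
Psma4: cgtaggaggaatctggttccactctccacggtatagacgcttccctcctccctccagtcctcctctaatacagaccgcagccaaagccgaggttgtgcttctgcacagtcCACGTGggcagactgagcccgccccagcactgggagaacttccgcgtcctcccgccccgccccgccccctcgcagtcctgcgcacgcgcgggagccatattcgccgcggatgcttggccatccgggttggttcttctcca
Psmb5 has the antioxidant response element TGACGTCGC starting 47 bases before the start. Psma7 has a CCAAT box starting 196 bases before it, and Psmb3 has CCAAT boxes 85 and 43 bases before it. The E-box of Psma4 starts 140 bases before its start. Psmd11 has none of the 3 motifs in the window.

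No proteasome gene passed the test in the comparison of 4 lymphoma with 4 wild type mice. By limma with Benjamini-Hochberg adjustment over all 33709 features, 0 of 41 members were called, beside 2.09% of all genes (0.817% higher and 1.27% lower). At an unadjusted p under 0.05 there were 3 members, Psma8, Psmb1 and Psmc1, all with higher values in lymphoma, while 15.9% of all genes reached that level and 8.19% did so with higher values. The difference, lymphoma minus wild type, ranged from -0.52 for Psma2 to 1.20 for Psmb1. It was above 0 in 30 of 41 members (73.2%) and in 56.7% of all genes, and its median was 0.20 for the members and 0.06 for all genes. Under the deposited scaling, without the adjustment to the 75th percentile, the medians were 0.13 and -0.01, and 26 of 41 members lay above 0. The larger share of members above 0 was seen on slide 2 and not on slide 1, as given below. For 25 of 41 members (61.0%) the 95% interval of the difference lay within 1 log2 unit of 0, as it did for 65.0% of all genes. A change of 2-fold or more lies outside the interval for those 25 genes. Among them is Psmb11, at background on all 8 arrays, where a change could be hidden. Of 41 members 39 were above background on all 8 arrays.

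**Figure D1:**
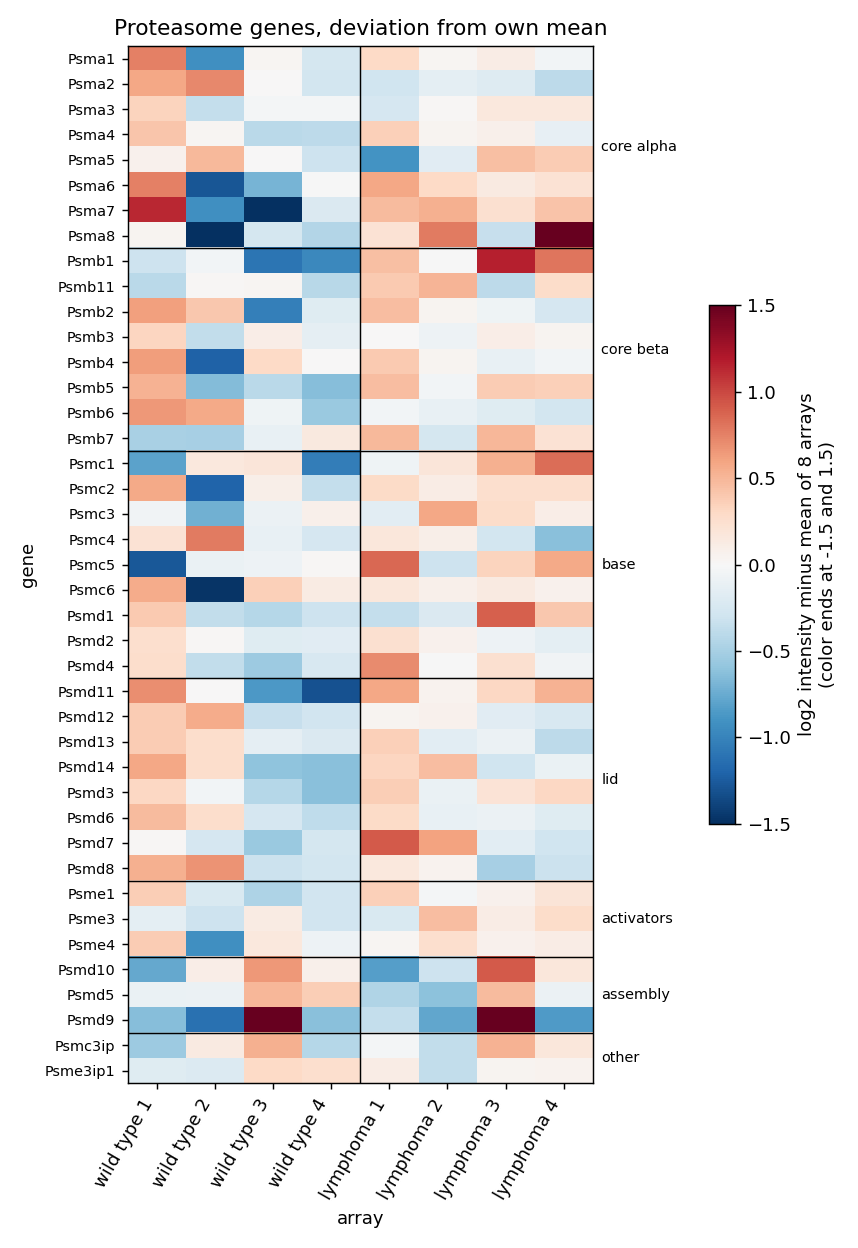
Log2 intensity of each of 41 proteasome genes on each of 8 arrays, minus the gene's mean over the 8 arrays (color, ending at -1.5 and 1.5), ordered by role. Wild type 1 is red in most core and lid rows, and wild type 2 is blue in many core and base rows but not in the lid.

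By role, the median difference was 0.19 over the 8 alpha ring genes, 0.27 over the 8 beta ring genes, 0.40 over the 9 base genes and 0.07 over the 8 lid genes. Differences were above 0 in 6 of 8, 7 of 8, 8 of 9 and 4 of 8 genes of these groups. Both beta ring figures count Psmb11 (difference 0.39), which was at background on all 8 arrays. The beta ring median lies midway between Psmb4 (0.14) and Psmb11. The 3 activators had a median of 0.30 and the 3 assembly factors one of -0.02. These medians moved with single controls. Without wild type 1 they were 0.41 for the alpha ring and 0.26 for the lid, and without wild type 2 they were 0.12 for the alpha ring, 0.22 for the base and 0.17 for the lid. Within slide 1 the lid median was -0.13. No test was made between the groups, and none of them held a called gene.

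**Figure D2:**
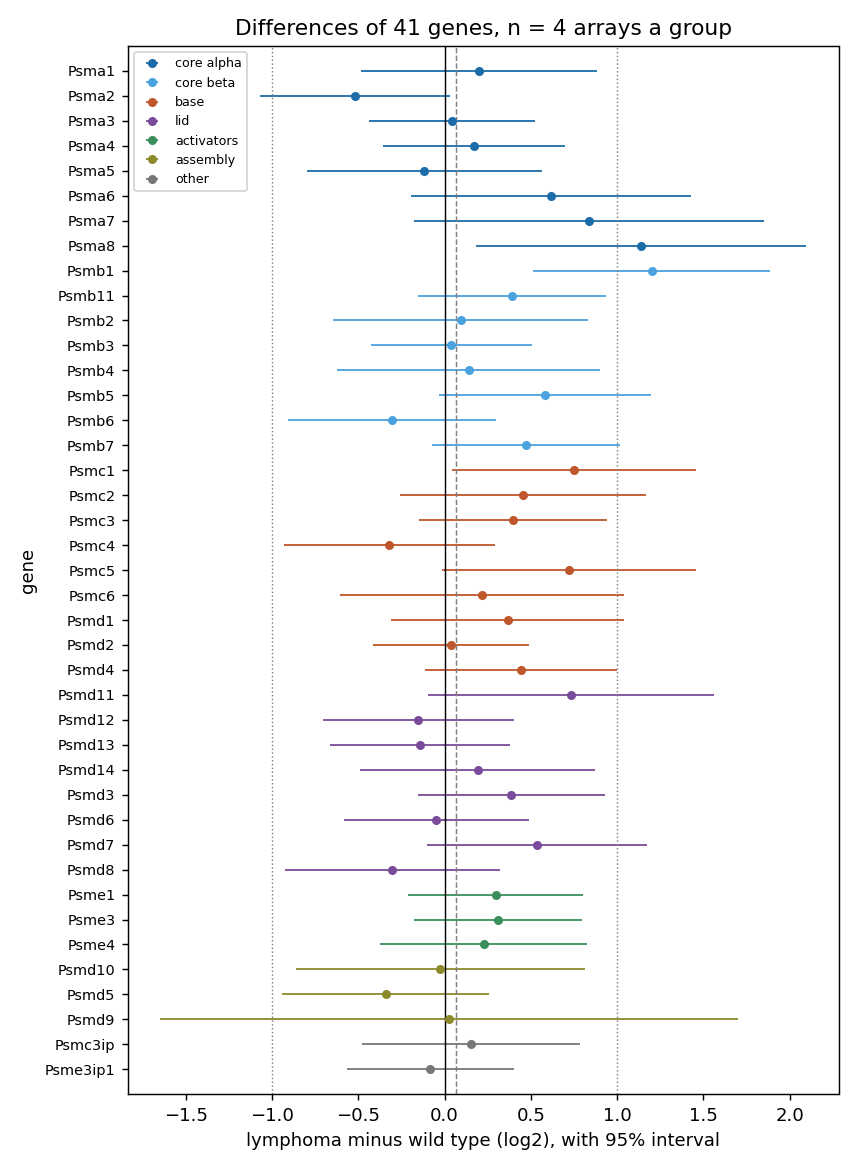
Difference of log2 intensity, lymphoma minus wild type, of each of 41 proteasome genes (points, colored by role) with its 95% interval from limma (lines), n = 4 arrays a group. Dotted lines mark 1 log2 unit on either side of 0 and the dashed line marks the median of all genes, 0.06. Psmb1, Psma8 and Psmc1 are the genes whose intervals lie wholly above 0.

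In the beta ring, Psmb1, a subunit without an active site, came nearest to a call. Its levels were 12.84, 13.11, 12.05 and 12.17 in wild type 1 to 4 and 13.59, 13.13, 14.30 and 13.94 in lymphoma 1 to 4. Every lymphoma array was above every wild type array, though lymphoma 2 exceeded wild type 2 by little. The difference was 1.20 (SE 0.314), with a 95% interval of 0.51 to 1.89, or 2.30-fold, at an adjusted p of 0.0876 by limma. Psmb1 was the single member whose groups did not overlap, 1 of 41, beside 4.43% of all genes with higher and 5.55% with lower non-overlapping values.

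The catalytic subunits gave 3 different patterns, none of them called. Psmb5, which carries the chymotrypsin-like site, had levels of 13.20, 12.03, 12.27 and 12.04 in wild type 1 to 4 and 13.14, 12.64, 13.06 and 13.04 in lymphoma 1 to 4. Wild type 1 was the highest of all arrays, and the other controls lay below every lymphoma array. The difference was 0.58 (SE 0.281), adjusted p 0.370 by limma. Psmb6, with the caspase-like site, read 14.64, 14.55, 13.93 and 13.43 in wild type 1 to 4 and 13.95, 13.87, 13.80 and 13.71 in lymphoma 1 to 4, and its lymphoma arrays lay close together inside the wild type range. Its difference was -0.30 (SE 0.276), adjusted p 0.662 by limma. Psmb7, with the trypsin-like site, read 10.91, 10.90, 11.29 and 11.55 in wild type 1 to 4 and 11.88, 11.14, 11.90 and 11.62 in lymphoma 1 to 4, with the groups overlapping. Its difference was 0.47 (SE 0.25), adjusted p 0.416 by limma. The structural subunits Psmb2, Psmb3 and Psmb4 differed by 0.09, 0.04 and 0.14. Psmb11, the beta subunit of thymic epithelium, was at background on all 8 arrays, with 6.21, 6.64, 6.65 and 6.21 in wild type 1 to 4 and 7.01, 7.14, 6.23 and 6.90 in lymphoma 1 to 4, and no fold is given for it.

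In the alpha ring, Psma7 showed the widest gap between the groups' spreads. Its levels were 15.77, 13.71, 12.98 and 14.41 in wild type 1 to 4 and 15.11, 15.17, 14.88 and 15.06 in lymphoma 1 to 4. The lymphoma arrays lay within a narrow band, above 3 controls and below wild type 1. The SD was 1.19 in wild type and 0.124 in lymphoma, and the difference was 0.84 (SE 0.464), adjusted p 0.441 by limma. Psma6 read 14.41, 12.38, 12.96 and 13.66 in wild type 1 to 4 and 14.24, 13.95, 13.79 and 13.88 in lymphoma 1 to 4, again with wild type 1 highest of all and wild type 2 lowest. It differed by 0.62 (SE 0.371), adjusted p 0.482 by limma, and by 0.97 without wild type 1 and 0.29 without wild type 2.

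Psma8, the alpha subunit of the testis proteasome, was dim, with 7.74, 6.09, 7.44 and 7.27 in wild type 1 to 4 and 7.92, 8.49, 7.35 and 9.34 in lymphoma 1 to 4. Wild type 2 was at background, and lymphoma 4 lay well above the rest. The difference was 1.14 (SE 0.438), with a 95% interval of 0.18 to 2.10 and an adjusted p of 0.25 by limma. Psma8 is closely related to Psma7, and whether its feature also binds Psma7 RNA was not tested. Among the other alpha subunits, Psma1, Psma3 and Psma4 differed by 0.20, 0.04 and 0.17, and Psma5 by -0.12. Psma2 had the lowest difference of all members, -0.52 (SE 0.252), with a 95% interval of -1.07 to 0.03 that includes 0.

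**Figure D3:**
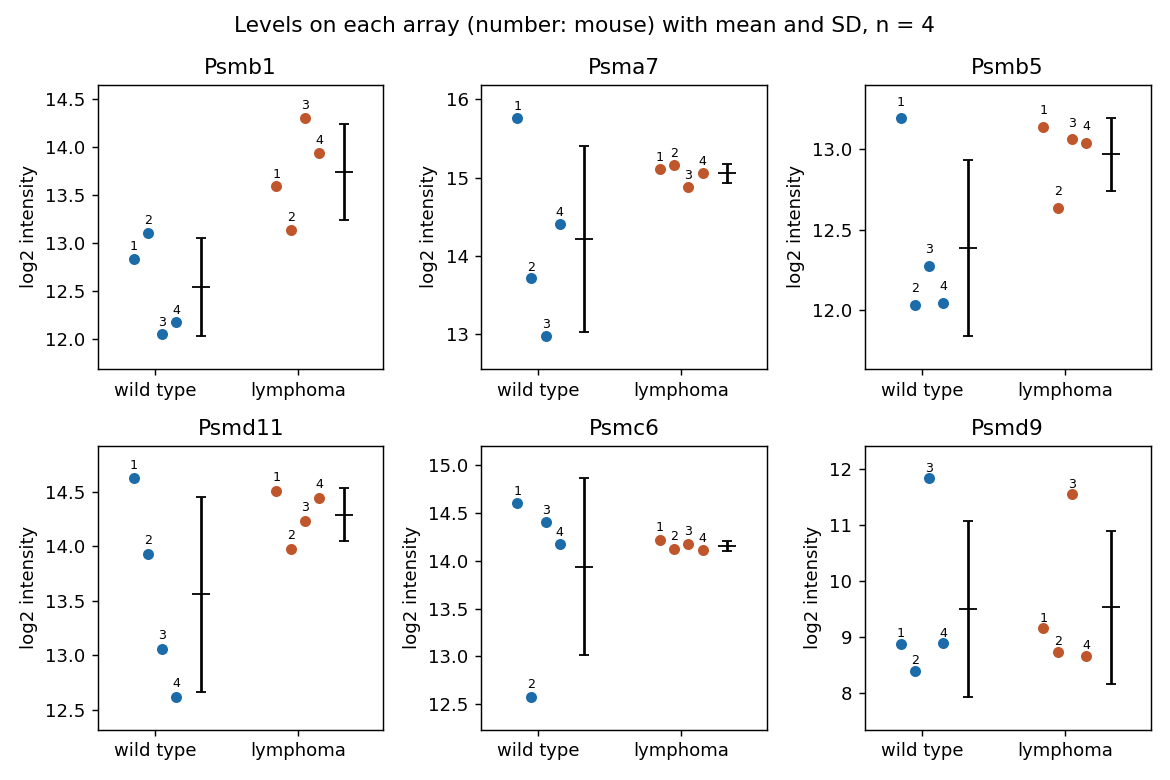
Log2 intensity of 6 proteasome genes on each array (points, numbered by mouse), with the mean and SD of each group (n = 4). In Psma7, Psmb5 and Psmd11 wild type 1 lies among or above the lymphoma arrays, in Psmc6 wild type 2 lies far below all others, and in Psmd9 wild type 3 and lymphoma 3 lie far above all others.

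The base is built from 6 ATPases and 3 further subunits. Psmc1, an ATPase whose tail opens the gate of the core, read 11.08, 12.03, 12.05 and 10.84 in wild type 1 to 4 and 11.81, 12.06, 12.41 and 12.72 in lymphoma 1 to 4. Lymphoma 2 to 4 lay above every control, while lymphoma 1 fell among them. The difference was 0.75 (SE 0.324), with a 95% interval of 0.04 to 1.46 and an adjusted p of 0.312 by limma. The ATPase Psmc5 read 10.78, 11.95, 11.97 and 12.07 in wild type 1 to 4 and 12.91, 11.74, 12.39 and 12.62 in lymphoma 1 to 4. Wild type 1 was by far the lowest array, and lymphoma 2 lay below the other controls. Its difference was 0.72 (SE 0.337), adjusted p 0.353 by limma.

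Psmc2, another ATPase, read 14.23, 12.46, 13.75 and 13.31 in wild type 1 to 4 and 13.95, 13.78, 13.91 and 13.92 in lymphoma 1 to 4, with wild type 1 highest and wild type 2 lowest of all arrays. It differed by 0.45 (SE 0.326), adjusted p 0.566 by limma, and by 0.72 without wild type 1, 0.13 without wild type 2 and 0.0994 with its features averaged. The ubiquitin receptor Psmd4 read 12.32, 11.69, 11.51 and 11.81 in wild type 1 to 4 and 12.77, 12.04, 12.30 and 12.00 in lymphoma 1 to 4. Its highest and lowest arrays were lymphoma 1 and wild type 3, and wild type 1 lay within the lymphoma range. It differed by 0.44 (SE 0.255), adjusted p 0.459 by limma, and by 0.053 with its features averaged. Its second feature differed by -0.34. The remaining ATPases Psmc3, Psmc4 and Psmc6 differed by 0.40, -0.32 and 0.22, and the scaffold subunits Psmd1 and Psmd2 by 0.36 and 0.04.

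The lid, which holds the deubiquitinase Psmd14, was split evenly in direction. Psmd14 read 14.35, 14.04, 13.18 and 13.15 in wild type 1 to 4 and 14.10, 14.24, 13.48 and 13.67 in lymphoma 1 to 4, with mice 1 and 2 of both groups above mice 3 and 4. Its difference was 0.19 (SE 0.312), with a 95% interval of -0.49 to 0.87. Its partner Psmd7 read 11.86, 11.59, 11.29 and 11.58 in wild type 1 to 4 and 12.77, 12.45, 11.69 and 11.55 in lymphoma 1 to 4. Lymphoma 1 and 2 were the highest arrays, and lymphoma 4 lay below wild type 1, 2 and 4. It differed by 0.54 (SE 0.292), adjusted p 0.432 by limma.

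Psmd11, a scaffold subunit that joins lid and base, read 14.62, 13.93, 13.06 and 12.62 in wild type 1 to 4 and 14.51, 13.98, 14.23 and 14.45 in lymphoma 1 to 4. Wild type 2 to 4 lay below every lymphoma array, wild type 2 by little, and wild type 1 above them all. It differed by 0.73 (SE 0.379), adjusted p 0.406 by limma. Psmd3 read 14.91, 14.56, 14.18 and 13.97 in wild type 1 to 4 and 14.97, 14.50, 14.80 and 14.91 in lymphoma 1 to 4, in the same order of controls, and differed by 0.39 (SE 0.248), adjusted p 0.509 by limma. Differences of the other lid genes were -0.05 for Psmd6, -0.30 for Psmd8, -0.15 for Psmd12 and -0.14 for Psmd13.

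The activators open the core without ubiquitin. Psme1, a subunit of the interferon-induced activator, read 15.56, 14.96, 14.73 and 14.91 in wild type 1 to 4 and 15.55, 15.16, 15.26 and 15.38 in lymphoma 1 to 4. The nuclear activator Psme3 read 9.73, 9.57, 9.998 and 9.59 in wild type 1 to 4 and 9.65, 10.34, 9.99 and 10.15 in lymphoma 1 to 4, and Psme4, an activator of nuclear proteasomes, read 13.71, 12.42, 13.49 and 13.26 in wild type 1 to 4 and 13.36, 13.58, 13.40 and 13.45 in lymphoma 1 to 4. The groups overlapped in all 3. Their differences were 0.30 (SE 0.232), 0.31 (SE 0.222) and 0.23 (SE 0.275), with adjusted p-values of 0.602, 0.565 and 0.756 by limma. All 3 intervals lay within 1 log2 unit of 0.

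Psmd5, Psmd9 and Psmd10 are chaperones that help assemble the base. Psmd5 read 11.39, 11.40, 11.99 and 11.86 in wild type 1 to 4 and 11.04, 10.87, 11.96 and 11.40 in lymphoma 1 to 4, and differed by -0.34 (SE 0.275), adjusted p 0.617 by limma. Its wild type 3 and lymphoma 3 arrays were the highest of their groups. Psmd9 read 8.88, 8.40, 11.84 and 8.89 in wild type 1 to 4 and 9.16, 8.74, 11.56 and 8.67 in lymphoma 1 to 4, so that mouse 3 of either group stood far above the others, and its interval of -1.65 to 1.70 was the widest of all members. A second Psmd9 feature read 8.75 and 9.35 on these 2 arrays and 8.48 to 9.45 on the others. Psmd10 read 8.86, 9.72, 10.27 and 9.70 in wild type 1 to 4 and 8.80, 9.31, 10.55 and 9.80 in lymphoma 1 to 4, with mouse 3 the highest and mouse 1 the lowest of either group, and differed by -0.02. Outside the proteasome, Psmc3ip read 8.07, 8.74, 9.14 and 8.18 in wild type 1 to 4 and 8.58, 8.24, 9.14 and 8.79 in lymphoma 1 to 4, a difference of 0.15 (SE 0.289). Psme3ip1 read 10.72, 10.70, 11.20 and 11.16 in wild type 1 to 4 and 11.01, 10.53, 10.95 and 10.95 in lymphoma 1 to 4, a difference of -0.08 (SE 0.222). Both overlapped between the groups.

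A second measure of the same genes came from their further features. Of 41 genes 19 had more than 1 feature, with 27 further features, of which 7 were at background on all 8 arrays. Of the other 20 features, 16 had the direction of the brightest one and 4 the opposite. Those 4 were features of Psma3 (-0.45), Psmc2 (-0.25), Psmc3ip (-0.30) and Psmd4 (-0.34). None of the 68 features was called, beside 1.65% of all listed features. An unadjusted p under 0.05 by limma was reached by 4 of the 68 (5.88%) and by 14.5% of all listed features. For Psmd2 the second feature differed by 0.99 (adjusted p 0.198 by limma), while the brightest differed by 0.04. The 2 further Psmd7 features differed by 0.31 and 0.21.

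The controls differed among themselves more than the lymphomas did. The median SD over the 41 members was 0.471 in wild type and 0.291 in lymphoma, and the wild type SD was the larger in 30 of 41 (73.2%). Over all genes these values were 0.415, 0.284 and 70.3%, so the members lie close to the array as a whole. The shares differed more on wild type 1, which had the highest value of all 8 arrays in 19 of 41 members (46.3%) and in 11.2% of all genes. It lay above the mean of the other controls in 32 of 41 members, by a median of 0.47 (all genes -0.03), in 8 of 8 alpha ring and 8 of 8 lid genes among them.

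Wild type 2 departed in a different set. It had the lowest value of all 8 arrays in 14 of 41 members (34.1%, all genes 21.3%), in 8 of 16 core genes, 3 of 9 base genes and 0 of 8 lid genes. It had the highest value in 5 members (12.2%, all genes 28.2%). Its median distance from the mean of the other controls was 0.01 over the members and 0.40 over the lid genes. In 10 of 41 members it lay at least 0.5 higher than that mean. It lay at least 1 log2 unit below the other controls in 8 members, Psma1, Psma6, Psma8, Psmb4, Psmc2, Psmc6, Psme4 and Psmd9 (19.5%, all genes 8.13%). Psmc6 was the furthest, with 14.60, 12.58, 14.40 and 14.17 in wild type 1 to 4 and 14.21, 14.12, 14.17 and 14.11 in lymphoma 1 to 4. Its second feature had the same shape, at 10.94, 8.25, 9.74 and 10.33 in wild type 1 to 4. For Psmc2 the second feature did not, with 8.57, 8.75, 8.65 and 8.63. This array had 111 features of the whole table below a log2 value of 4, where the other arrays had 0 or 1.

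Wild type 1 is the control most like the lymphomas, so that leaving it out favours wider differences by construction. Not all widened, as those of Psmc5 and Psmc1 went from 0.72 and 0.75 to 0.42 and 0.61. Without this array, calls over all genes went from 398 to 1556. In that fit 3 members, all core genes, were called higher in lymphoma, beside 4.28% of all genes called higher and 3.87% called lower. The difference was 1.35 (2.55-fold, adjusted p 0.0241 by limma) for Psma7, 1.30 (2.46-fold, adjusted p 0.0429) for Psmb1 and 0.85 (1.81-fold, adjusted p 0.0432) for Psmb5. The share of members, 3 of 41, is near the 4.28% of all genes. The median difference of the members was 0.37 without this array and that of all genes 0.06. No member was called when any other single array was left out. With each array weighted by how well it fitted its group, Psmb1 was the 1 member called, at 1.41 (adjusted p 0.0150 by limma), beside 3.53% of all genes called higher.

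Within slide 2, which carries mice 3 and 4 of each group, 2 members rose, beside 3.47% of all genes. Psmb1 rose by 2.01 (4.03-fold, adjusted p 0.0176 by limma) and Psmd11 by 1.5 (2.83-fold, adjusted p 0.0334). Within slide 1, which carries wild type 1 and 2, limma called 0 members and 0 of all genes, while 2 members and 1090 genes had an unadjusted p under 0.05. There the difference was 0.39 for Psmb1 and -0.04 for Psmd11. Within slide 1 the difference was above 0 in 56.1% of members and 57.1% of all genes, with medians of 0.06 and 0.10. Within slide 2 these shares were 78.0% and 50.9%, with medians of 0.19 and 0.01. Differences lay above 0 on both slides in 19 members, below 0 on both in 5, and on opposite sides in 17.

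The difference between the slides was itself tested as an interaction in limma. No member was called (lowest adjusted p 0.470, for Psmb1), and neither was any other gene. At an unadjusted p under 0.05 there were 4 members and 7.68% of all genes. The effect of Psmb1 was larger on slide 2 than on slide 1 by 1.62, which this test does not separate from the spread between arrays.

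**Figure D4:**
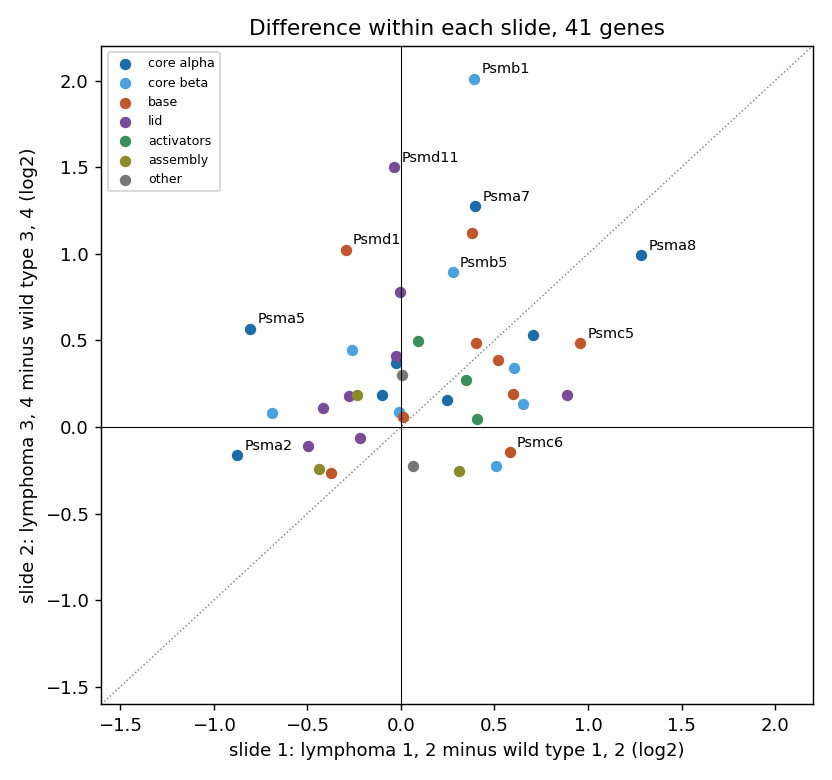
Difference of log2 intensity, lymphoma minus wild type, within slide 1 (x axis) and within slide 2 (y axis) for each of 41 proteasome genes, colored by role, with 2 arrays of each group on each slide. The dotted line marks equal differences. Psmb1 and Psmd11 lie highest on slide 2, at 2.01 and 1.5, and close to or moderately above 0 on slide 1.

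Further genes of the pathway were read from fixed lists. The inducible subunits of the immunoproteasome, which replace Psmb5, Psmb6 and Psmb7, were not called, with differences of -0.45 for Psmb8, -0.17 for Psmb9 and 0.51 for Psmb10 (adjusted p 0.517 by limma). Of 7 assembly factors outside the Psmd symbols 0 were called, the largest difference being 0.72 for Psmg4 (adjusted p 0.441), a chaperone of the alpha ring. Of 12 further subunits, bound enzymes and ubiquitin receptors 0 were called, the largest difference being 0.75 for Ecpas (adjusted p 0.218), a scaffold that binds proteasomes. Of 8 genes of the p97 unfoldase and its cofactors 0 were called, the largest difference being -0.59 for Ubxn4 (adjusted p 0.484). Uba6, a ubiquitin-activating enzyme, differed by 0.10. At an unadjusted p under 0.05 limma gave 4 of these 31 genes, beside 15.9% of all genes.

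Over 10 regulators of proteasome transcription the median difference was -0.44, and -0.29 without wild type 2. That array had the highest value of all 8 in 8 of the 10 (80%), beside 28.2% of all genes. Of these regulators, 2 fell in lymphoma, beside 1.27% of all genes called lower. Both encode small Maf proteins, which pair with Nfe2l1 and Nfe2l2 on antioxidant response elements. Maff read 10.33, 12.14, 11.87 and 11.75 in wild type 1 to 4 and 9.76, 9.88, 9.90 and 9.72 in lymphoma 1 to 4, and Mafk read 11.58, 13.03, 12.35 and 12.21 in wild type 1 to 4 and 10.93, 10.86, 10.89 and 10.37 in lymphoma 1 to 4. Every lymphoma array was below every control, and wild type 1 was the lowest control in both. Maff fell by 1.71 on the log2 scale (SE 0.345, 3.26-fold lower, adjusted p 0.0353 by limma) and Mafk by 1.53 (SE 0.296, 2.88-fold lower, adjusted p 0.0301). The calls held without wild type 1 (adjusted p 0.000235 and 0.00271). They were lost when any of the other 7 arrays was left out, with adjusted p-values of 0.0768 to 0.117 for Maff and 0.0502 to 0.110 for Mafk. The called macrophage, plasma cell and granulocyte markers, 8 of 18 in these lists, fell as well, and their part in this result was not tested.

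The third small Maf gene, Mafg, differed by -0.40 (adjusted p 0.459 by limma), and by 0.18 with its features averaged. The activators themselves were not called. Nfe2l1 read 11.55, 12.25, 12.38 and 10.88 in wild type 1 to 4 and 11.03, 11.09, 12.78 and 12.99 in lymphoma 1 to 4, with wild type 4 and lymphoma 1 and 2 lowest, and differed by 0.21 (SE 0.488), adjusted p 0.885. Nfe2l2 read 11.56, 13.08, 11.51 and 11.57 in wild type 1 to 4 and 11.29, 11.12, 10.97 and 10.81 in lymphoma 1 to 4, with every lymphoma array below every control. Its difference was -0.89 (SE 0.339), adjusted p 0.246 by limma, and -0.50 without wild type 2. Groups did not overlap, with lower values in lymphoma, in 5 of the 10 regulators, beside 5.55% of all genes: Maff, Mafk, Nfe2l2, Ngly1, which processes Nfe2l1, and Nfyc, a subunit of NF-Y.

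**Figure D5:**
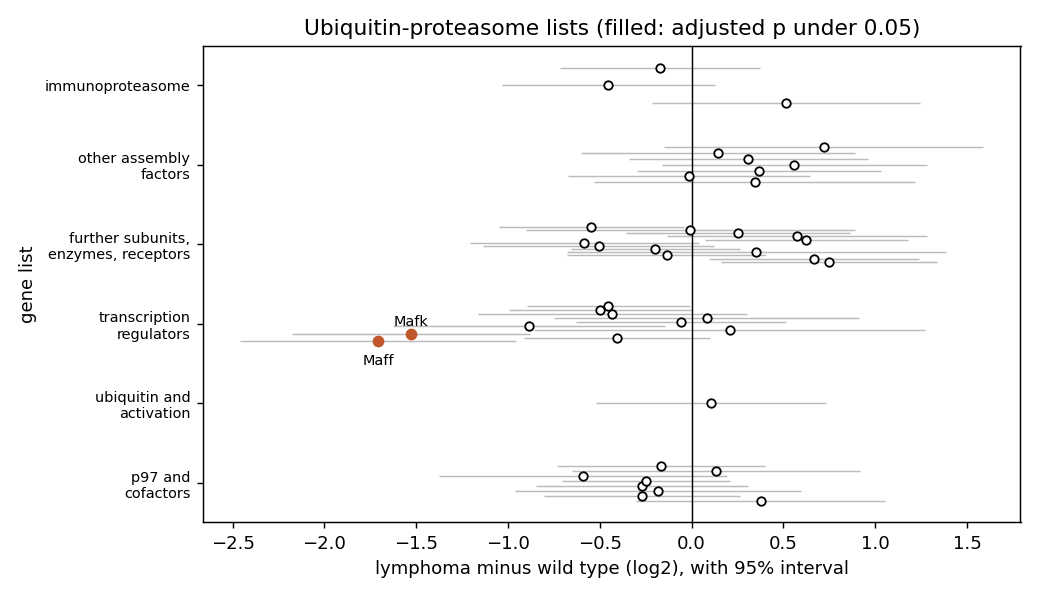
Difference of log2 intensity, lymphoma minus wild type, of the genes of 6 ubiquitin-proteasome lists (circles) with 95% intervals from limma (lines), n = 4 arrays a group. Filled circles mark the called genes Maff and Mafk, which lie at -1.71 and -1.53, left of all other genes.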

How the data were processed

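Messenger RNA of B splenocytes was measured on 1-colour Agilent arrays, 4 wild type and 4 lymphoma. Precision is limited by this number. The values deposited by the authors are log2 intensities, given for 45220 features. The sources used here do not state the scanner, the background correction or the normalization. Per the labels' protocols, 0.5 µg of RNA per array was extracted by the Chomczynski method and labelled with Cy3. The platform annotation listed 33709 features with a gene, and the brightest feature of a gene, by its mean over the 8 arrays, stood for it.

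Because the 75th percentiles of the arrays differed by 0.215, the arrays were aligned at these percentiles, taken over listed features. The difference between the groups was fitted in limma (version 3.58.1, R version 4.3.3) with lmFit and eBayes, group as the only term and no filter on dim features. Tests were two-sided, with Benjamini-Hochberg adjustment over 33709 features. Genes with an adjusted p below 0.05 are called, and every p in the text comes from limma. The script was tested on simulated data. The p-values set the difference against the spread between mice within the groups. A feature was at background where it lay below the 95th percentile of 1113 olfactory and vomeronasal receptor features of its array, a bound of 7.17 to 7.45 over the arrays.

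Members, lists and tests were chosen with earlier results of these data known. Values of every array are given for the 3 members of each role with the largest absolute difference (assembly factors and the 2 members that are not subunits taken as 1 role) and for a fixed set of catalytic, activating and tissue-specific subunits, Psmd4 and Psmd14, and other arrays' values were added where a pattern turned on them. Of each other list, the called genes or the largest difference are named. All 41 members matched a RefSeq gene, and 0 symbols changed. Genes of the lists without a listed feature are not analysed here. Alternatives were other scalings, array weights, the slide or replicate number as a block, single slides, other rules for features, and leaving out each array.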

Additional observations from a re-analysis of the deposited data

Results flagged for a closer look

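In each group of 4 arrays, the highest and the lowest value were compared with their nearest neighbour, and a gap above Dixon's 95% critical share of the group's range was noted. Chance gives this in about 1 in 20 groups, and 5 of 82 groups met it. For Psmc5, wild type 1 was the lowest control at 10.78 against 11.95 to 12.07 on the others, a gap of 0.913 of the range. For Psmd1, wild type 1 was the highest control at 10.59 against 9.77 to 9.89, a gap of 0.855. For Psmd9, wild type 3 was the highest control at 11.84 against 8.40 to 8.89, a gap of 0.856, and lymphoma 3 was the highest of its group at 11.56 against 8.67 to 9.16, a gap of 0.831. For Psme3ip1, lymphoma 2 was the lowest of its group at 10.53 against 10.95 to 11.01, a gap of 0.865.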

How the results depend on the processing

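Up to 21 alternatives were run, 20 for Psmb11 and Psme1. In all that were run for it, 19 of 41 members kept the direction of their difference, 15 higher and 4 lower in lymphoma, with Psmb11, at background, among the 15. Members called higher numbered 3 without wild type 1, 2 within slide 2 alone and 1 with array weights (Psmb1), and 0 in the other settings. Leaving out each array in turn gave 0 to 3 members called higher and a median difference of 0.16 to 0.37, the highest without wild type 1. No setting called a member lower, and the interaction with slide called 0 members under the main, deposited and quantile scalings and with each array left out. Calls over all genes ranged from 0 within slide 1 to 1556 without wild type 1. With the replicate number as a block, 0 members were called and the median stayed at 0.20. The labels do not say whether equal numbers pair the mice, and the values do not settle it. Correlations of same-numbered deviations were 0.18, -0.04, 0.13 and -0.02, and those of the other pairs lay between -0.15 and 0.08. The block gave 526 called genes against 398. Within slide 2 alone, 1 gene of the other pathway lists (Rad23b) was called higher and 3 (Maff, Mafk and Ubqln2) lower. Of all 19087 genes, 662 were called higher and 626 lower there. The count of genes of these lists called lower was 0 within slide 1 alone. It was 0 to 2 when arrays were left out, 0 for every array but wild type 1. Wide reversals included those of Psma5 (-0.81 to 0.57 over the settings), Psmd1 (-0.29 to 1.02) and Psmd9 (-0.65 to 0.81). Among the 22 members chosen by rule for printing, direction reversed for Psmb6 within slide 2 (0.0787). For Psmc3ip it reversed without wild type 1 (-0.0030) and with all its features averaged (-0.0748). It also reversed within slide 1 for Psmd11 (-0.0352), Psmd14 (-0.0258), Psmd3 (-0.0057) and Psme3ip1 (0.0629). Psme3ip1 reversed without lymphoma 2 (0.0281) and without wild type 3 (0.0034), and Psme4 without wild type 2 (-0.0406). Of the 22 members chosen by rule, 16 moved by more than 1.5 times when some single array was left out. The exceptions were Psma8, Psmb1, Psmb5, Psmb7, Psmc1 and Psme3. With arrays left out in turn, the differences ranged from -0.0030 to 0.35 for Psmc3ip, from -0.16 to 0.03 for Psme3ip1 and from -0.04 to 0.39 for Psme4. The cause of these changes was not tested. Fits of a single slide use fewer arrays. Signal over background limits Psmb11 and Psma8.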
